A study of Mus musculus with 30 samples.

Results

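Genomic imprinting silences one parental copy of a gene, and many imprinted genes set the size of the embryo. In the classic growth circuit Igf2, a paternally expressed growth factor, signals through the insulin and IGF1 receptors, while the maternally expressed Igf2r takes IGF2 up and sends it to the lysosome. Grb10 is an adaptor that dampens insulin and IGF receptor signalling, Cdkn1c a cyclin-dependent kinase inhibitor (p57), Phlda2 a restrainer of placental growth, and H19 a noncoding RNA that shares its enhancers with Igf2. Plagl1 and Peg3 are zinc finger proteins, and Mest belongs to the alpha/beta hydrolase family. Parental alleles were not told apart in these data, so every value below is the sum over both copies.

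These 9 genes were chosen by symbol, with earlier results of these data known. They were followed through the 13 columns of 1 RNA table of 53974 genes, through a table of explants, and through 8 peak lists. The series holds 30 mouse samples, all from embryos at stage E13.5, and the labels name no engineered allele. Neural stem/progenitor cells (NSPCs) from the forebrain of C57BL/6 embryos were grown at early passage with the growth factors EGF and FGF, which keep progenitors dividing. For 24 h they received DMSO (control), 10 mM crotonate or 1 µM MS-275, with 4 biological replicates each. Crotonate is a fatty acid that cells turn into crotonyl-CoA, the donor for lysine crotonylation, and MS-275 blocks the class I enzymes that take acyl groups off histones. A vehicle is given for the controls only. The other RNA samples were 1 untreated C57BL/6 forebrain and forebrain explants of the ICR strain, 3 control and 3 given crotonate, for which the labels state neither dose nor time. Chromatin immunoprecipitation (ChIP) was done with antibodies against crotonylated (Kcr) and acetylated (Kac) lysine in NSPCs and against H3K9cr and H3K9ac, the same modifications at lysine 9 of histone H3, in forebrain, with 1 library per antibody and condition. The labels do not say whether embryos were pooled.

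Levels are given as TPM, a transcript abundance scaled for length and for the total of its library. The files give no read counts, so depth is unknown. Control libraries had between 13444 and 13696 genes at 1 TPM or more, crotonate libraries between 14388 and 14595, and MS-275 libraries between 14565 and 14854. This number moved with treatment, and its part in the differences below was not tested. All 11 neural progenitor markers reached 1 TPM in each NSPC group and in forebrain. The summed level of 8 erythroid markers was 11895 TPM in forebrain and at most 1.79 TPM in any NSPC library, and that of 7 endothelial markers 68.7 TPM against 1.81 to 8.01 TPM. In bulk RNA, fewer cells of a type and less RNA per cell cannot be told apart. NSPCs also carried oligodendrocyte lineage markers, whose 6 genes summed to between 1686 and 1885 TPM in control libraries, against 56.4 TPM in forebrain. The 10 neuron markers summed to 3368 TPM in forebrain and 322 to 344 TPM in control NSPCs. Markers also moved with treatment. The 11 progenitor markers had control sums of 9774 to 10301 TPM. Under MS-275 their sums were 13796 to 14432 TPM, with 5 markers higher and 2 lower. Under crotonate they lay at 9156 to 10060 TPM, with 1 higher and 1 lower. Oligodendrocyte lineage sums were 1848 to 2099 TPM under crotonate (2 of 6 genes higher). Under MS-275 they were 2843 to 3123 TPM (3 of 6 higher), and no gene of this set was lower under either agent. Of 8 tested neuron markers 6 were higher and 1 lower with crotonate and 5 higher with MS-275, with sums of 293 to 323 and 390 to 408 TPM. Of 5 astrocyte markers 3 and 4 were higher, with sums of 73.7 to 88.1 TPM in controls, between 108.8 and 123.9 TPM with crotonate and between 135.5 and 166.0 TPM with MS-275. The part of such cells in the members' differences was not tested.

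The stretch before a gene's start is printed for 5 members, to show the sequence beside which peaks were or were not called. Each line gives 250 bases ending just before an annotated start (RefSeq, GRCm38.p6), 5′ to 3′ on the gene's strand. Capitals mark matches to 5 motifs, sought on either strand and allowed to overlap. The cyclic AMP response element (CRE), spelled TGACGTCA, was found in 1.55% of all 32817 windows of this length. The GC box, spelled GGGCGG, was found in 32.7% of them. The E-box searched here, spelled CACGTG, was found in 6.02%. The TATA box, spelled TATAAA, was found in 12.4%, and the CCAAT box, spelled by its name, in 33.8%. Peg3 is shown because it had peaks in more lists than any other member, Igf2r and Mest because peaks lay over or beside their windows, Grb10 because its RNA had the smallest adjusted p with either treatment, and Igf2 because 1 list held a peak nearby.
Peg3 (chr7:6730420-6730669, minus strand): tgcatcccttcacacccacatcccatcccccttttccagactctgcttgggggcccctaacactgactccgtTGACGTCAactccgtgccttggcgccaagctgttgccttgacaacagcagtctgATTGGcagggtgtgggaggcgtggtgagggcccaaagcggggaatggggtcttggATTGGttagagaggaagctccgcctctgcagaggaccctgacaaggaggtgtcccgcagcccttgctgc
Igf2r (chr17:12769707-12769956, minus strand): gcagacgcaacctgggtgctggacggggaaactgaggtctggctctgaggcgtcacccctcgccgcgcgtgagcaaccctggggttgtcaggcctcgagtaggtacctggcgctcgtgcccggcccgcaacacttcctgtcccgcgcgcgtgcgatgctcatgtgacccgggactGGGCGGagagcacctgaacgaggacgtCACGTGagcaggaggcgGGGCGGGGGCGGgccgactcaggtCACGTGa
Mest (chr6:30737803-30738052, plus strand): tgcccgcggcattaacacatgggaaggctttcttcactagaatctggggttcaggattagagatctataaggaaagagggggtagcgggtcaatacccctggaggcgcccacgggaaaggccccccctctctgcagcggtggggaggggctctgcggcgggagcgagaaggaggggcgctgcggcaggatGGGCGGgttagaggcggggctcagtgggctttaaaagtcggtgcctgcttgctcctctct
Grb10 (chr11:12037421-12037670, minus strand): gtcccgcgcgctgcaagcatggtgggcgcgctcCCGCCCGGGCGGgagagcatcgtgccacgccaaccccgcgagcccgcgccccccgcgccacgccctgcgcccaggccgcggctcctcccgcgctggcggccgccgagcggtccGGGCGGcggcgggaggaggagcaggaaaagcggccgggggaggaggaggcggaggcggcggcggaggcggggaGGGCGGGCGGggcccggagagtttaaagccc
Igf2 (chr7:142658805-142659054, minus strand): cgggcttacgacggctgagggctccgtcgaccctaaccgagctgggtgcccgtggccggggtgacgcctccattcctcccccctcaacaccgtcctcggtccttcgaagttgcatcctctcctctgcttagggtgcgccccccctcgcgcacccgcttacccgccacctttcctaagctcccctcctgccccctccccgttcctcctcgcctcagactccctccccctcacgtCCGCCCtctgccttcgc
The Grb10 window was 81.2% G and C with 40 CpG dinucleotides, against a median of 52.4% and 6 over all windows. The Igf2r window held 27 CpGs, 3 GC boxes and 2 E-boxes, and the Igf2 window 22 CpGs. The Peg3 window held 8 CpGs, 1 CRE and 2 CCAAT boxes, and the Mest window 14 CpGs and 1 GC box. A match is a description of letters and not evidence of a bound factor. H19 and Cdkn1c had no entry in the table of promoters.

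In control NSPCs the 9 genes covered a wide range. Mest was the most abundant at 599 ± 36.9 TPM (SD, n = 4), followed by Peg3 at 38.3 ± 3.58 and Igf2r at 26.4 ± 2.23 TPM, and these 3 did not overlap each other. Grb10 (9.49 ± 0.929 TPM), Plagl1 (8.72 ± 1.39) and Cdkn1c (7.29 ± 1.91) came next with overlapping libraries, and the lowest Cdkn1c library (5.90 TPM) lay below the highest H19 library (6.62 TPM). H19 stood at 4.69 ± 1.77 TPM. Igf2 reached 1.05 ± 1.05 TPM, with every library below every H19 library, and Phlda2 was listed at 0 in all 4 controls.

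The forebrain library ordered the same genes differently. Mest was again first at 299 TPM, 0.498 of the control NSPC mean, and Plagl1 (167 TPM), Grb10 (153 TPM) and Cdkn1c (128 TPM) followed. On the log2(TPM + 1) scale, 5 of the 9 members were at least 4-fold above the control NSPC mean, where 8.05% of 15450 expressed genes were. None was at least 4-fold below it, as 3.7% of those genes were. The 5 at least 4-fold above were Plagl1 (17.4-fold), Cdkn1c (15.8-fold), Grb10 (14.8-fold), Igf2 (10.5-fold, at 18.8 TPM) and H19 (8.06-fold, at 43.2 TPM). The 15450 genes had 1 TPM or more in forebrain or in all controls. Igf2 reached that in forebrain but not in every control. It entered through the library where it was high, so its place among the 5 is no support. Phlda2, at 0 in forebrain and controls, was not among the 15450. Peg3 (78.9 TPM) was 2.04-fold above the control NSPC mean on that scale, Igf2r (21.9 TPM) was 1.19-fold below it, and Phlda2 was listed at 0. With 1 forebrain library there is no test, and the part of the neurons, erythroid, endothelial and other cells whose markers are given above in these levels was not tested.

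**Figure D1:**
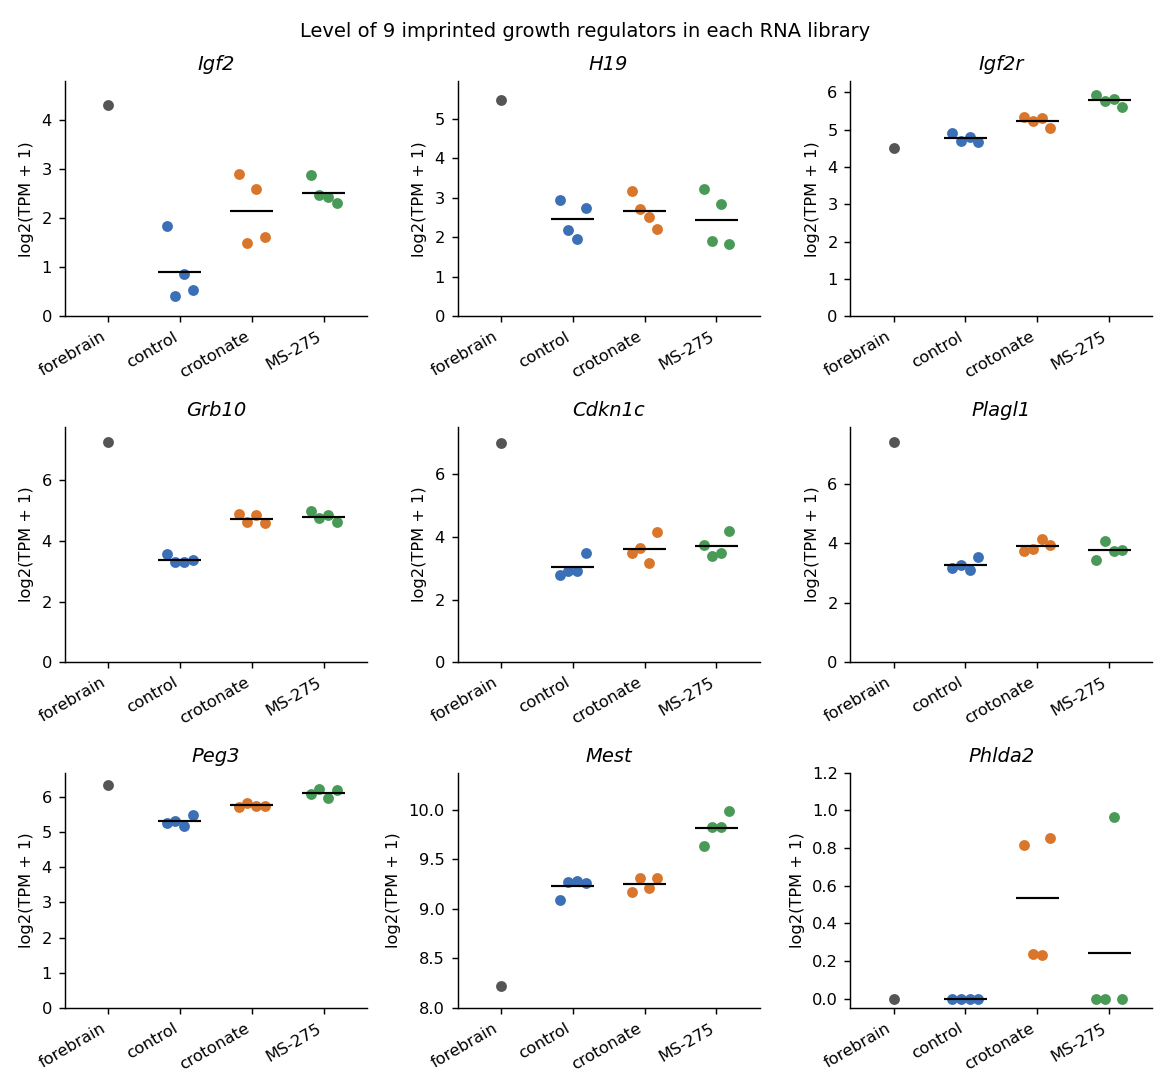
Each panel shows log2(TPM + 1) of 1 gene, with 1 point per library for forebrain (1) and for control, crotonate and MS-275 NSPCs (4 each) and a line at the mean of the 4. Igf2r and Peg3 step up from control to crotonate to MS-275, Mest with MS-275 alone, and Phlda2 is at 0 in every control. The Mest axis starts at 8.

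The comparison of crotonate with control asked how NSPCs respond to a source of histone crotonylation. Of the 8 members with at least 1 TPM in 4 or more of the 12 NSPC libraries, 6 rose and none fell. Over all 14857 genes tested, 32.3% were higher and 15.9% lower, by limma on log2(TPM + 1) at a Benjamini-Hochberg adjusted p under 0.05. The members' median difference was 0.53 on the log2 scale, beside 0.09 over all genes. Those that rose with crotonate were Grb10, Igf2, Plagl1, Cdkn1c, Igf2r and Peg3. Igf2 was the 1 member that met the filter only through treated libraries, so its place in these counts is no support. Without it the counts were 5 of 7 with crotonate and 6 of 7 with MS-275. In 4 of the 8 (Grb10, Igf2r, Peg3 and Plagl1) every crotonate library lay above every control, as in 29.5% of all tested genes, and in none below every control, as in 14.7%. MS-275 against control asked the same of a deacetylase inhibitor. There 7 of the 8 members rose and none fell, with 37.4% of tested genes higher and 27.6% lower, and a median of 0.75 against 0.08 over all genes. Libraries did not overlap for 5 of the 8 (Grb10, Igf2, Igf2r, Mest and Peg3), as in 33.6% of tested genes, and no member lay wholly below the controls, as 24.9% did. These splits depend on scaling: with median-of-ratios scaling 45.4% of the called genes were higher with crotonate in place of 67.1%, and the median of all genes moved by -0.12. With MS-275 the share went from 57.5% to 48.0%. Quantile normalization gave 45.6% and 46.5% with shifts of -0.13 for both treatments, and left 4 members higher with crotonate and 5 with MS-275. Both treatments share the control libraries.

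Among the ligand and its locus, Igf2 was low and variable. Control replicates 1 to 4 held 2.60, 0.333, 0.814 and 0.444 TPM. Crotonate libraries held 6.47, 1.83, 5.08 and 2.07 TPM, and MS-275 libraries 6.37, 4.54, 4.42 and 3.96 TPM. Replicate 1 was the highest in each group, the crotonate libraries 2 and 4 lay below control 1, and all MS-275 libraries lay above all controls. Igf2 rose by 1.24 (SE 0.35) on the log2(TPM + 1) scale with crotonate (limma adjusted p = 0.0117, higher at 4 of 4 replicate numbers). With MS-275 it rose by 1.61 (SE 0.35, adjusted p = 0.00148, 4 of 4). Only 1 control reached 1 TPM, so Igf2 met the filter through the treated libraries and had to differ to be tested. With no filter the adjusted p was 0.0321 and 0.00503. The crotonate call ended under quantile normalization (0.80, adjusted p = 0.0818, with 0.000726 to 0.0818 over 15 alternatives), and a pseudocount of 0.1 gave 1.98 and 2.47, since the scale with 1 added understates the change of low genes.

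H19, which lies 72.6 kb from Igf2 on chromosome 7, did not pass the test in any NSPC comparison. Its controls held 6.62, 3.51, 2.90 and 5.73 TPM, its crotonate libraries 7.99, 5.62, 4.74 and 3.62 TPM, and its MS-275 libraries 8.39, 2.75, 6.14 and 2.53 TPM. The 3 groups overlapped throughout. The difference was 0.20 with crotonate (95% interval -0.52 to 0.92, limma adjusted p = 0.648) and -0.01 with MS-275 (-0.72 to 0.71, adjusted p = 0.989), and its sign turned under other settings. The microRNAs of these loci, Mir675 in H19, Mir483 in Igf2 and Mir335 in Mest, were listed at 0 in all 13 columns.

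Replicate 1 held the most Igf2 and the most H19 in all 3 groups, and also the most Igf2r and Grb10. The summed level of 13 pericyte and mesenchyme markers followed the same replicate: 20.0, 6.07, 12.9 and 5.79 TPM in controls 1 to 4, 22.9, 10.5, 18.8 and 8.44 TPM with crotonate, and 32.5, 12.6, 20.0 and 12.04 TPM with MS-275. In the control and crotonate groups, replicates 1 and 3 had the highest sums and the highest Igf2. With MS-275, replicate 3 had a higher sum than replicate 2 but less Igf2 (4.42 against 4.54 TPM). H19 was highest in replicates 1 and 3 with MS-275 alone. In controls replicate 3 held the least H19 (2.90 TPM), and replicate 4, with the lowest sum, held 5.73 TPM. In each group none of the 13 markers was at 0 in all libraries. Of the 8 that could be tested, none was called with crotonate and 1 was higher with MS-275. The sum of 7 choroid plexus markers was also highest in replicate 1 of each group (2.82, 5.83 and 6.93 TPM in control, crotonate and MS-275). So was that of 4 Cajal-Retzius markers (3.35, 5.63 and 3.55 TPM), and no other marker set was. The part of any of these cells in the Igf2, H19, Igf2r and Grb10 values was not tested.

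**Figure D2:**
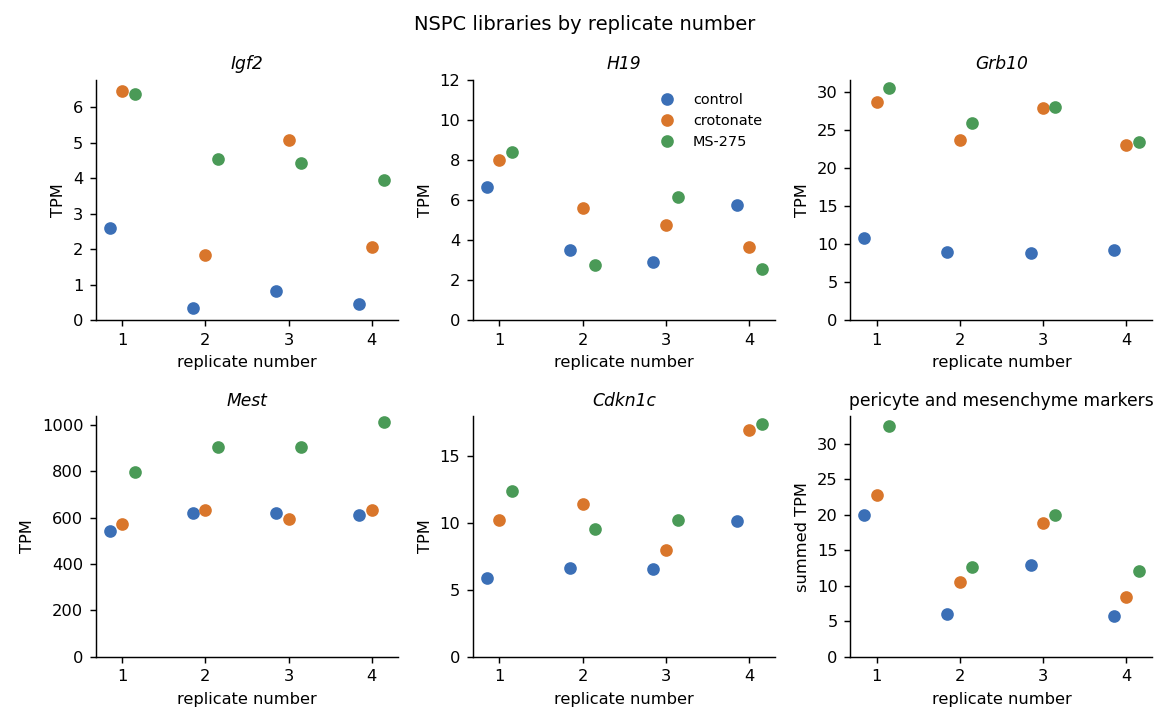
TPM of 5 genes, and the summed TPM of 13 pericyte and mesenchyme markers, in each NSPC library by replicate number, with 1 point per library coloured by treatment. Igf2, H19, Grb10 and the marker sum are highest in replicate 1 of each treatment, Cdkn1c in replicate 4, and Mest is lowest in replicate 1.

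The receptor that clears IGF2 rose with both treatments. Igf2r held 29.4, 25.0, 26.8 and 24.4 TPM in controls, 39.8, 36.4, 39.1 and 31.9 TPM with crotonate and 60.2, 53.4, 55.9 and 48.3 TPM with MS-275. The 3 groups did not overlap. It rose by 0.46 (SE 0.08, limma adjusted p = 7.0e-04) with crotonate and by 1.02 (SE 0.08, 4.1e-07) with MS-275, and stood 0.55 higher with MS-275 than with crotonate (SE 0.08, 2.0e-04). The noncoding Airn, whose transcription through Igf2r silences it on the paternal copy, shares 28396 bp with Igf2r, and reads of the pair may not be separable because use of strand is not given in the sources used here. The same holds for Mest and Copg2 (913 bp shared), Plagl1 and Hymai (5056 bp shared), Igf2 and Igf2os (7137 bp), Peg3 and Peg3os (865 bp) and Grb10 and the noncoding LOC102631979 (9120 bp). Airn went from 8.18 ± 1.55 to 10.9 ± 0.709 TPM with crotonate (log2 0.39, adjusted p = 0.0139) and to 11.7 ± 1.09 TPM with MS-275 (0.48, 0.00274). Both Airn calls ended under quantile normalization (0.431 and 0.0988), and the crotonate call also with median-of-ratios scaling (0.0780).

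Grb10, the signalling adaptor, had the smallest adjusted p of the members with each treatment against control. Controls held 10.9, 8.96, 8.86 and 9.26 TPM, crotonate libraries 28.7, 23.7, 27.9 and 23.0 TPM, and MS-275 libraries 30.5, 25.9, 28.0 and 23.4 TPM. Every treated library lay far above the highest control, and the treated groups overlapped each other. The means rose 2.72-fold with crotonate (log2 1.35, SE 0.10, limma adjusted p = 3.8e-07) and 2.84-fold with MS-275 (1.41, SE 0.10, 7.2e-08). MS-275 and crotonate differed by 0.06 (95% interval -0.15 to 0.27, adjusted p = 0.652). Of the 16 alternatives run for each treatment, all kept both calls. Its relative Grb14, an adaptor of the same family, rose from 10.6 ± 0.572 to 28.9 ± 1.32 TPM with crotonate and to 35.3 ± 1.97 TPM with MS-275 (log2 1.36 and 1.64, adjusted p = 8.1e-09 and 3.9e-10).

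The cell-cycle inhibitor Cdkn1c held 5.90, 6.62, 6.54 and 10.1 TPM in controls, 10.2, 11.4, 7.97 and 16.9 TPM with crotonate and 12.4, 9.53, 10.2 and 17.4 TPM with MS-275. Replicate 4 was the highest in every group, and control 4 overlapped both treatments. Treated libraries were higher at 4 of 4 replicate numbers with either agent. The log2 differences were 0.59 (SE 0.23, limma adjusted p = 0.0477) and 0.68 (SE 0.23, 0.0182). The crotonate call ended in 11 of 16 alternatives (adjusted p 0.00148 to 0.34 over them), 6 of which each left out 1 library (control 1, 2 or 3, or crotonate 1, 2 or 4). With the replicate number as a block it was 0.00148. The MS-275 call ended under quantile normalization (0.41, adjusted p = 0.141), without control 1 (0.0515) and without MS-275 replicate 4 (0.0590). The other inhibitors of its family moved apart: Cdkn1a (p21) rose from 480 TPM (475.9 to 484.1 over 4 libraries) to 615 (602.9 to 628.9) and 574 (548.8 to 589.6) TPM, and Cdkn1b (p27) fell from 90.05 ± 3.55 to 76.3 ± 5.14 and 71.7 ± 0.993 TPM, with crotonate and MS-275 in turn (adjusted p at most 0.0013 for the 4 tests).

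Phlda2 lies 40.5 kb from Cdkn1c and failed the filter. Crotonate libraries held 0.759, 0.180, 0.176 and 0.809 TPM, MS-275 replicate 3 held 0.950 TPM, and the 4 controls, the other MS-275 libraries and the forebrain were listed at 0. All crotonate libraries thus lay above all controls, at under 1 TPM. No test is given for values so close to 0.

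The zinc finger gene Plagl1 held 8.01, 8.57, 7.57 and 10.7 TPM in controls, 12.3, 12.9, 16.7 and 14.3 TPM with crotonate and 9.85, 15.7, 12.4 and 12.6 TPM with MS-275. Crotonate libraries lay above every control, whereas MS-275 replicate 1 lay below control 4. It rose by 0.63 (SE 0.14, limma adjusted p = 0.00226) and 0.48 (SE 0.14, 0.00772). Quantile normalization lowered these to 0.37 (0.0456) and 0.25, where the MS-275 call ended (0.135). Peg3, the other zinc finger gene, held 36.9, 38.3, 34.8 and 43.3 TPM in controls, 51.2, 55.3, 52.0 and 52.2 TPM with crotonate and 66.5, 72.6, 61.0 and 72.5 TPM with MS-275. The 3 groups formed separate steps. Peg3 rose by 0.45 (SE 0.07, 1.9e-04) with crotonate and 0.81 (SE 0.07, 5.1e-07) with MS-275, and was 0.36 higher with MS-275 than with crotonate (SE 0.07, 0.00106).

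Mest split the agents. It held 544, 619, 621 and 614 TPM in controls, 574, 634, 594 and 635 TPM with crotonate, and 796, 905, 904 and 1014 TPM with MS-275. Crotonate overlapped the controls and MS-275 lay above both. The difference was 0.02 with crotonate (95% interval -0.12 to 0.17, limma adjusted p = 0.797), where the sign turned with median-of-ratios scaling and without control 1, and 0.59 with MS-275 (SE 0.07, 6.7e-06). MS-275 exceeded crotonate by 0.57 (SE 0.07, 2.7e-05). In that direct comparison 3 of the 8 members were higher with MS-275 (Mest, Igf2r and Peg3) and none lower, beside 19.3% and 27.4% of all tested genes, and the libraries of all 3 were apart, as in 18.3%. For Igf2, Grb10, Cdkn1c, Plagl1 and H19 the 95% intervals of the difference between agents included 0. They ran from -0.93 to 0.51 for H19, from -0.45 to 0.15 for Plagl1, from -0.40 to 0.58 for Cdkn1c and from -0.40 to 1.14 for Igf2. The agents were given at 1 dose each, 10 mM and 1 µM, so only these doses were compared.

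In forebrain explants the question was whether crotonate acts on intact tissue. In the authors' deposited table, 5 of 8 members were lower with crotonate and none higher, while 9.75% of 14507 genes were lower and 10.5% higher. Which arm is on top of the ratio is known from the title of that table alone. By the authors' deposited table Mest fell to 0.736 of control (log2 -0.44, SE 0.02, adjusted p = 1.5e-77), Grb10 to 0.801 (-0.32, SE 0.02, 9.7e-50) and H19 to 0.827 (-0.27, SE 0.04, 2.1e-10). Cdkn1c fell to 0.840 (-0.25, SE 0.04, 3.9e-07) and Peg3 to 0.841 (-0.25, SE 0.02, 6.9e-25), again in the authors' deposited table. Igf2 (-0.05, adjusted p = 0.572), Igf2r (0.06, 0.284) and Plagl1 (0.04, 0.280) were not called there, and Phlda2 had a mean of 0.334 normalized counts and no adjusted p. The members' median was -0.25, beside 0.0021 over all genes of the authors' deposited table. Grb10, Cdkn1c and Peg3 thus stood higher with crotonate in NSPCs and lower in explants. That contrast was not tested, since strain, RNA selection (total against polyA) and scale differ, and no values per library were used for explants.

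The 4 members on distal chromosome 7 (H19 at 142575530 to 142578146, Igf2 at 142650768 to 142666816, Cdkn1c at 143458339 to 143461059 and Phlda2 at 143501545 to 143503145) span 928 kb. Their neighbours and those of the other members were followed from a fixed list. Of 16 tested neighbours 8 rose and 2 fell with crotonate, and 10 rose and 3 fell with MS-275, with medians of 0.29 and 0.40. Tnfrsf23 and Cobl needed treated libraries to meet the filter, so their place among those that rose is no support. Over all tested genes 32.3% rose and 15.9% fell with crotonate, and 37.4% rose and 27.6% fell with MS-275, the shares against which each list below is set. Under quantile normalization the neighbours' counts were 4 and 1 with crotonate, and 5 and 2 with MS-275. With median-of-ratios scaling 5 rose and 4 fell with crotonate, and 9 rose and 4 fell with MS-275. Zim1, a zinc finger gene beside Peg3, rose from 1.83 ± 0.850 to 6.96 ± 1.06 TPM with crotonate and 5.77 ± 1.35 TPM with MS-275 (log2 1.53 and 1.28, limma adjusted p = 4.7e-05 and 8.7e-05). Usp29, on the other side of Peg3, went from 2.62 ± 0.703 to 3.91 ± 0.203 and 4.57 ± 0.741 TPM (0.46 and 0.63, adjusted p = 0.0137 and 0.00121), and both calls ended under quantile normalization. Fuca2, a fucosidase near Plagl1, rose from 7.42 ± 1.57 to 27.3 ± 3.48 and 20.8 ± 2.96 TPM (1.76 and 1.38). Phactr2 next to it had differences of 0.42 and 0.39, and its calls ended under quantile normalization too.

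Near Cdkn1c, Cd81, a tetraspanin, moved apart between the agents: 712 ± 28.8 TPM in controls, 639 ± 8.57 with crotonate (log2 -0.16, limma adjusted p = 0.00828) and 1260 ± 76.8 with MS-275 (0.82, 5.5e-09). The crotonate call of Cd81 ended under quantile normalization (adjusted p = 0.220). Tssc4 fell with crotonate (-0.48, 1.6e-04) and Nap1l4, a histone chaperone, with MS-275 (-0.31, 1.1e-04), as did Sf3b5, a splicing factor near Plagl1 (-0.44, 1.9e-05). The decoy receptor Tnfrsf23 rose with both (1.08 and 1.33, adjusted p = 0.00271 and 3.4e-04), but its controls (0.545 to 1.54 TPM) did not all reach 1 TPM, so it met the filter through treated libraries. Tnfrsf22 passed with crotonate at 0.67 (0.0497), but not with the replicate block (0.0578) or either other scaling (0.0901 and 0.310). Copg2, which overlaps Mest by 913 bp, rose by 0.27 and 0.30 (0.00376 and 0.00123), and the first call ended with median-of-ratios scaling (0.0976). With MS-275 Cobl (0.65, its controls at 0.194 to 1.07 TPM) and Osbpl5 (0.41) were higher and Dhcr7 lower (-0.24), and quantile normalization ended these 3 calls (0.593, 0.199 and 0.0628). Cep41 was not called in either comparison. Kcnq1ot1, the noncoding RNA that silences the Cdkn1c domain, stayed under 1 TPM in all groups and was not tested.

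Among 35 tested imprinted genes of other domains, 18 rose and none fell with crotonate, and 20 rose and 5 fell with MS-275 (medians 0.31 and 0.41). With median-of-ratios scaling the crotonate counts were 17 and 2. Asb4, Mirg, Rasgrf1, Sfmbt2 and Slc38a4 were under 1 TPM in every control and met the filter through treated libraries alone. They were called higher with both agents, so their place in these counts is no support. Snurf, called with crotonate, also needed treated libraries to meet it, with controls at 0 to 4.83 TPM. The smallest adjusted p values among the 35 belonged to 2 neighbouring noncoding RNAs (crotonate 8.7e-09 and 2.5e-07): Rian, from 3.73 ± 0.882 to 36.0 ± 4.07 and 30.2 ± 3.08 TPM, and Meg3, from 3.07 ± 1.14 to 29.7 ± 4.03 and 21.4 ± 4.34 TPM. Forebrain held 525 and 665 TPM of them. Peg12 fell from 47.1 ± 1.57 to 15.8 ± 1.72 TPM with MS-275 (log2 -1.52, limma adjusted p = 2.4e-09). With crotonate it was at 41.8 ± 2.16 TPM (-0.17, 0.0589, and 0.0218 with the replicate block). Begain rose from 3.90 ± 0.777 to 7.34 ± 1.08 TPM with crotonate and fell to 1.89 ± 0.223 TPM with MS-275 (0.77 and -0.75, 3.4e-04 and 2.1e-04). In the authors' deposited table for explants, 4 of 40 such genes were higher and 16 lower, beside 10.5% and 9.75% of all genes.

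The wider IGF pathway, a list of receptors, binding proteins and signalling enzymes, did not move one way. Of 39 tested genes 15 rose and 9 fell with crotonate, and 17 rose and 9 fell with MS-275. Igfbp6 and Igf2bp1 were under 1 TPM in every control and met the filter through treated libraries, so their place among those that rose is no support. With median-of-ratios scaling the counts were 12 and 15, and 11 and 14, so the balance turned. The smallest p values among those that rose belonged to 2 binding proteins: Igfbp7 went from 3.19 ± 0.759 to 15.2 ± 1.55 and 19.5 ± 1.36 TPM (log2 1.97 and 2.31, limma adjusted p = 1.7e-07 and 1.0e-08), and Igfbp4 from 91.4 ± 5.02 to 140 ± 7.15 and 209 ± 10.9 TPM (0.61 and 1.19, 1.8e-06 and 1.7e-09). Binding proteins did not all follow: Igfbp3 was at 530 TPM in controls, 512 with crotonate (-0.05, adjusted p = 0.244) and 469 with MS-275 (-0.18, 6.3e-04, and 0.164 under quantile normalization). Igfbp3 was chosen after its values were seen. The kinases Akt1 and Akt2 fell with both agents, Akt1 by 0.28 and 0.53 and Akt2 by 0.45 and 0.67 on the log2 scale (adjusted p at most 9.2e-05). Igf1r, the signalling receptor for IGF2, was at 16.8 ± 0.262 TPM in controls, 17.1 ± 1.16 with crotonate (0.02, adjusted p = 0.767) and 21.2 ± 1.21 with MS-275 (0.32, 3.9e-04). Of 7 tested relatives of the members 4 rose and 1 fell with crotonate and 5 rose and 1 fell with MS-275. With median-of-ratios scaling these were 2 and 1, and 3 and 2. M6pr, the other mannose 6-phosphate receptor, had differences of 0.11 and 0.14 (adjusted p = 0.0317 and 0.00678), and neither passed with median-of-ratios scaling, where the crotonate sign turned. Phlda3 rose by 0.19 and 0.31 (0.00201 and 2.5e-05), its crotonate call ending with that scaling (0.224). Phlda1 had -0.02 (0.811) and 0.21 (0.0299, and 0.217 with that scaling). Plagl2 had 0.04 (0.762) and -0.18 (0.103, and 0.0164 with that scaling).

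A list of imprint controllers held genes that set or keep imprints and also the Tet enzymes, which oxidise methylated cytosine. Of its 20 tested genes 3 rose and 8 fell with crotonate, and none rose and 13 fell with MS-275. With MS-275 1 was higher and 17 lower than with crotonate. Over all tested genes 15.9%, 27.6% and 27.4% were lower in these 3 comparisons, and 32.3%, 37.4% and 19.3% higher. The medians were -0.09 and -0.38 against control. Dnmt1, the maintenance DNA methyltransferase, fell from 137 ± 5.89 to 97.9 ± 1.98 and 70.1 ± 5.04 TPM (log2 -0.48 and -0.96, limma adjusted p = 8.8e-06 and 6.7e-09). Trim28, the corepressor that holds silencing complexes at imprints, fell from 281 ± 4.57 to 232 ± 6.01 and 176 ± 5.40 TPM (-0.28 and -0.67, 1.6e-05 and 2.7e-09). Ezh2, the enzyme of Polycomb repression, fell from 169 ± 7.93 to 128 ± 4.92 and 79.3 ± 4.44 TPM (-0.40 and -1.09, 2.7e-05 and 1.7e-09). Zfp57, which recruits Trim28 to imprints, rose with crotonate from 26.8 ± 4.77 to 38.7 ± 3.85 TPM (0.52, 0.00187) and was at 27.9 ± 2.76 TPM with MS-275 (0.07, 0.617). Tet2, an enzyme that oxidises methylated cytosine, rose with crotonate by 0.32 (0.00256), a call that ended under quantile normalization (0.191). In the authors' deposited table for explants, 7 of 20 such genes were higher and 6 lower, beside 10.5% and 9.75% of all genes. There Ezh2 (0.13, adjusted p = 6.2e-07) and Zfp57 (0.08, 0.00342) were higher. Dnmt1 (-0.12, 1.9e-06), Trim28 (-0.11, 9.1e-09) and Tet2 (-0.17, 2.6e-05) were lower.

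**Figure D3:**
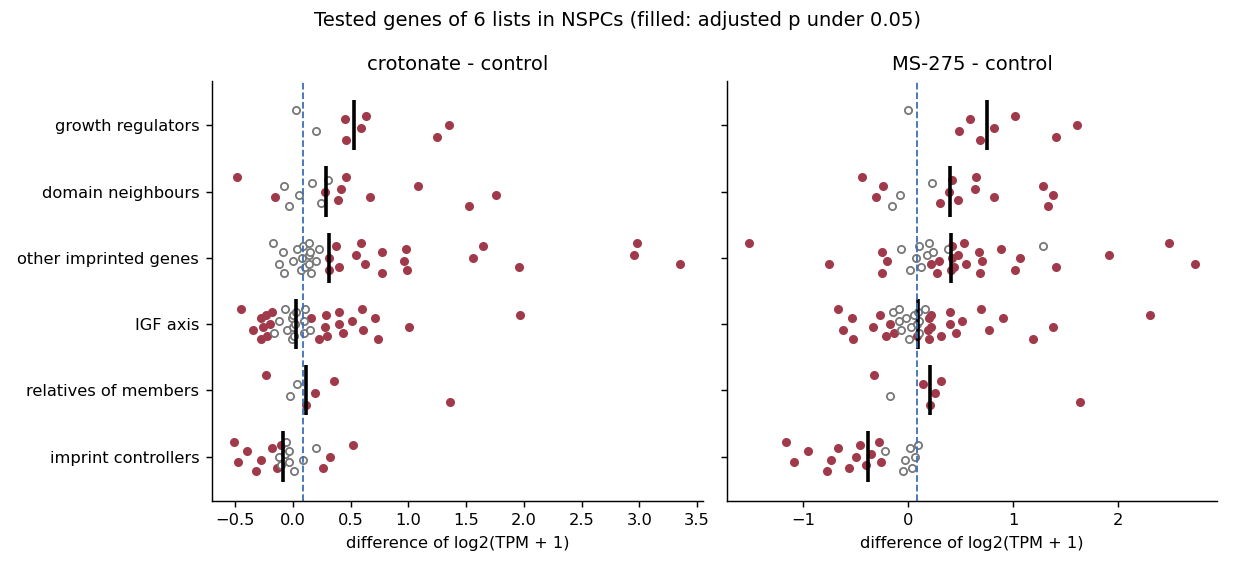
Each point is 1 tested gene of 6 lists, placed by its difference of log2(TPM + 1) in NSPCs for crotonate (left) and MS-275 (right) against control. Filled points passed limma at an adjusted p under 0.05, black bars are list medians, and the dashed line is the median of all 14857 genes (0.09 and 0.08). The imprint controllers have medians of -0.09 and -0.38, and the growth regulators 0.53 and 0.75. Heights within a row carry no value.

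The genes whose log2(TPM + 1) followed each member most closely over the 12 NSPC libraries were Pdia4 (r = 0.984) and Tmem40 (0.944) for Igf2, Runx2 (0.855) and Egr4 (0.831) for H19, and Cd109 (0.993) and Plec (0.991) for Igf2r. For Grb10 they were Ifitm2 and Ebpl (both 0.994), for Peg3 Sesn3 (0.989) and Rhoc (0.987), for Mest Sbk1 (0.976) and Slc22a17 (0.975), for Plagl1 Zfp791 and Celsr3 (both 0.926), and for Cdkn1c Asb7 (0.919) and Pcdh19 (0.917). The points share treatments and replicate numbers, so these are descriptions only.

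Peaks show where the marks were called, with positions only in the 6 NSPC lists and 1 library behind each list. A peak lay within 1 kb of the gene body for 3 members in control Kac (Igf2r, Mest and Peg3), 2 in crotonate Kac (Igf2r and Peg3), 1 in control Kcr (Peg3) and 4 in crotonate Kcr (Igf2, Igf2r, Mest and Peg3). Among 13769 tested genes with a position these shares were 73%, 70.3%, 64.6% and 74.7%. The MS-275 lists held none near a member, with 25.4% of genes in Kac and 23.4% in Kcr. These 2 lists were also the shortest, with 7555 and 5845 peaks against 17666 to 23424 in the others. In forebrain H3K9ac marked 7 members, all but H19 and Igf2, beside 88.2% of genes. H3K9cr marked 5 (Cdkn1c, Igf2r, Mest, Peg3 and Plagl1), beside 78.1%, and the same 5 had both marks, beside 78%. In all, 8 of the 9 members had a peak in at least 1 list, beside 92.5% of genes.

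Peg3 had a peak in 6 of the 8 lists, and 53.9% of the tested genes had peaks in at least 6. In all 4 control and crotonate NSPC lists it lay within the gene, about 1.2 kb after the printed start, and bases 6729053 to 6729238 of chromosome 7 were common to the 4. In forebrain, H3K9ac covered 6728905 to 6732264, start included, with a summit fold enrichment of 15.4, the authors' own value. H3K9cr there formed 3 peaks, of which the 1 at 6729015 to 6729486 covers the NSPC interval. Igf2r had peaks just after its start (chromosome 17) in control Kac at 12769309 to 12769483, crotonate Kac at 12769199 to 12769608 and crotonate Kcr at 12769333 to 12769647, while the nearest control Kcr peak was 146 kb away. The forebrain peaks at 12768936 to 12770111 (H3K9ac) and 12769063 to 12769981 (H3K9cr) cover its start and the printed window. A further pair inside Igf2r, at 12741426 to 12742358 and 12741510 to 12742125, lies at the edge of the Airn span (12741311 to 12859884).

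Mest has annotated starts at 30733506, 30738050 and 30738053 of chromosome 6. Control Kac had 3 peaks between 30734859 and 30737787 and crotonate Kcr had 2, at 30734584 to 30734763 and 30737422 to 30737698, and the closest of each were centred 371 and 493 bp before the last start. In forebrain H3K9ac (30737276 to 30739620, summit fold 14.3) and H3K9cr (30737850 to 30738748, 5.17) covered that start. Igf2 had 1 peak in all, in crotonate Kcr at 142659462 to 142659654, centred 754 bp before the start whose window is printed, while the nearest control Kcr peak was 117 kb away. It stops short of Igf2os, an antisense RNA that begins at 142659680. H19 had none within 1 kb, but crotonate Kac had a peak at 142581788 to 142581995, 3.64 kb outside H19 on the side facing Igf2. The nearest peak of control Kac was 41.5 kb from H19.

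Grb10, whose RNA rose with both agents, had its nearest NSPC peak 57.1 kb away. In forebrain H3K9ac at 12035432 to 12038729 of chromosome 11 (summit fold 9.46) covered the printed start, and the second start, at 12027971, had no peak over its window. Plagl1 had forebrain H3K9ac at 13090292 to 13091973 and H3K9cr at 13090799 to 13092072 of chromosome 10, both over its start, and its nearest NSPC peak 61.0 kb away. Cdkn1c had forebrain peaks within the gene (143459351 to 143460990 and 143459472 to 143460093) and its nearest NSPC peaks 12.4 to 20.4 kb away. Phlda2 had a forebrain H3K9ac peak over its start at 143502238 to 143502591, with the lowest fold of any member (3.57), although its RNA was listed at 0. With 1 library per list no difference between lists was tested, and the thresholds behind the NSPC lists are not given in the sources used here.

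**Figure D4:**
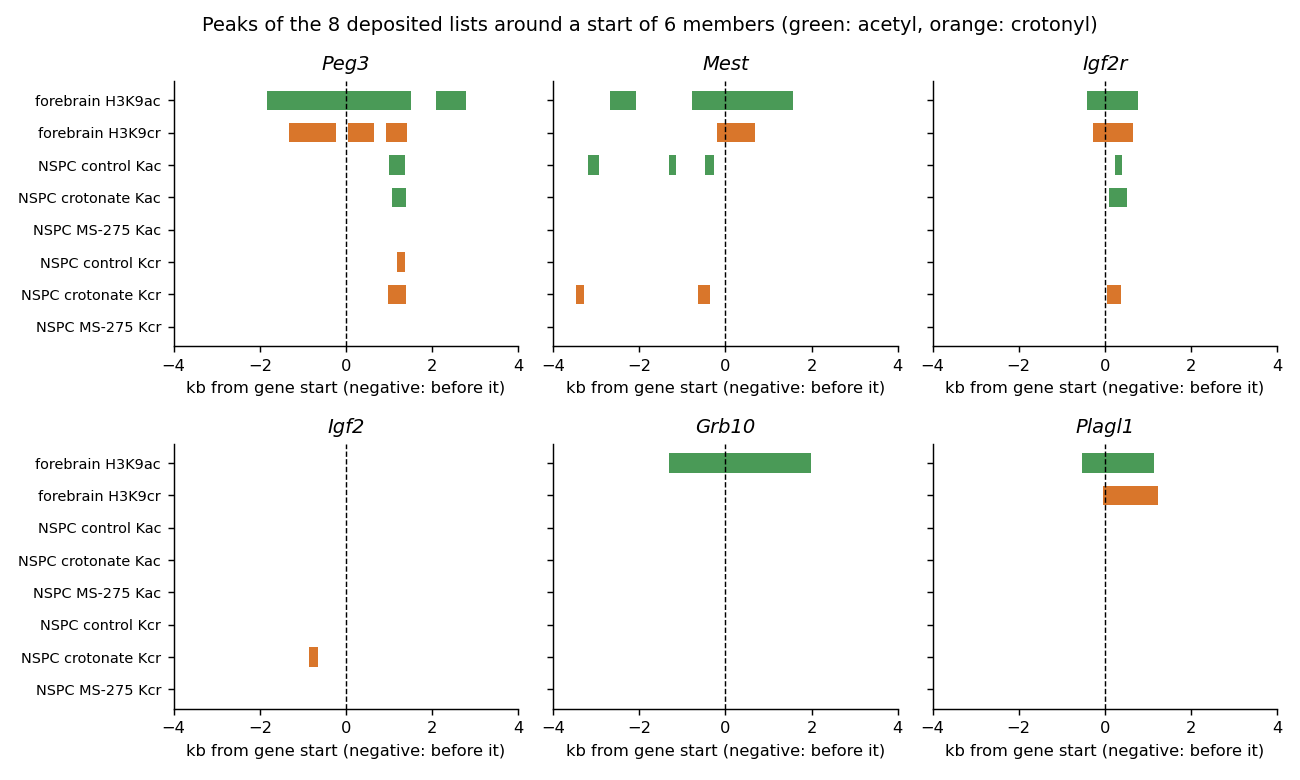
Peaks of the 8 lists within 4 kb of 1 annotated start of 6 members, drawn to scale as kb from that start (negative before it), with 1 row per list, acetyl lists in green and crotonyl lists in orange. Peg3 has a peak about 1.2 kb after its start in 4 NSPC lists, Grb10 and Plagl1 have forebrain peaks only, and the MS-275 rows are empty.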

How the data were processed

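RNA was measured in 12 NSPC libraries, 1 forebrain library and 6 explant libraries, and histone marks in 8 libraries with a peak list. Per the submitters' processing notes, tools named were Salmon 1.0.0, DESeq2 1.26.0, Bowtie2 2.3.5.1 and MACS2 2.2.5, with build GRCm38. The TPM values were made and deposited by the authors as 1 table with columns summing to between 998182 and 999495. The explant table holds, per the file headers, a signal column (the mean of DESeq2-normalized counts), log2 fold changes with SE, a score (their quotient), a p-value and an adjusted p-value, all fitted by the authors. The forebrain lists hold the authors' score, the ratio (fold enrichment) at the summit and -log10 p and q, as deposited, and the NSPC lists positions only.

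A pseudocount of 1 was added before the log2. A gene was kept if 4 or more of the 12 NSPC libraries reached 1 TPM, and tested in R 4.3.3 with limma 3.58.1 (eBayes with trend), in 1 fit of 3 groups, two-sided, Benjamini-Hochberg adjusted over 14857 genes, threshold 0.05. This script was tested on simulated data. Whether a replicate number marks a shared culture is not stated. Each library's deviations from its group mean correlated at 0.119 to 0.241 with those of the same number (12 pairs) and at -0.197 to 0.0993 with the 36 others, so the numbers were taken to pair the samples. The main fit did not use this pairing, and a replicate block was an alternative. For explants the authors' adjusted p was used, where pairing could not be examined without single libraries. A peak counted where it overlapped the gene body extended by 1 kb by at least 1 bp. Gene positions and promoters come from RefSeq GRCm38.p6. Positions are counted from 1. Alternatives were other pseudocounts, filters, scalings, fits, windows and thresholds, and leaving out each library.

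All 9 members are named. Of each list the 2 tested genes with the smallest adjusted p per direction and treatment are named, with every tested neighbour and relative. Igf1r, Airn, Kcnq1ot1, the microRNAs and non-coding partners outside this rule were chosen for their known roles. The members and gene lists were chosen with earlier results of these data known. Other software was pandas 2.3.3 and SciPy 1.17.1 under Python 3.11.15, with figures by matplotlib 3.10.9. Samples of whole-genome bisulfite sequencing, IgG and input were not analysed here.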

Additional observations from a re-analysis of the deposited data

Results flagged for a closer look

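In 3 of 26 sets of 4 libraries (the 9 members in 3 groups, without the set that is 0 throughout), the extreme library stood apart from the other 3 by more of the range than Dixon's 95% critical value allows. Chance flags about 1 set in 20 where values are normally distributed. Mest in control replicate 1 was low at 544 TPM, where the next control held 614 TPM. Cdkn1c in control replicate 4 was high at 10.1 TPM, where the next held 6.62 TPM. Phlda2 in MS-275 replicate 3 was at 0.950 TPM, where the other 3 MS-275 libraries were listed at 0. With those 3 at 0, any value above 0 is flagged, so this flag carries no weight.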

How the results depend on the processing

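With the replicate number as a block the members called higher were 6 with crotonate, 7 with MS-275 and 3 with MS-275 over crotonate, the same numbers as without it, and the block changed no member's call. With crotonate, 4213 genes were lower under median-of-ratios scaling in place of 2356, and under quantile normalization 3091 were higher, in place of 4796, and 3685 lower. Signs turned for members that were not called: H19 with crotonate (-0.20 under quantile normalization) and Mest with crotonate (-0.11 under median-of-ratios scaling). Leaving out 1 library at a time gave -0.0218 to 0.0517 for Mest with crotonate and -0.27 to 0.20 for H19 with MS-275. For MS-275 minus crotonate it gave -0.0717 to 0.276 for Cdkn1c, -0.00070 to 0.12 for Grb10 and -0.47 to 0.0023 for H19. The cause was not tested. Cdkn1c with crotonate, called at 0.59, ranged from 0.40 to 0.74 over libraries left out. With 1 library left out, 5 or 6 members were higher with crotonate, 6 or 7 with MS-275 and 3 with MS-275 over crotonate. The explant counts of 5 lower and 0 higher members held at a threshold of 0.01 and with p-values adjusted again over all genes with a p-value. With a window of 10 kb 5 members had an NSPC peak in place of 4, and 6 had a forebrain peak of -log10 q of at least 5 in place of 7. Depth is unknown, so low values such as those of Igf2 and Phlda2 can be given no counting error.
No paired analysis was possible for explants because that table has no single libraries.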
